A study of Rattus rattus with 23 samples.

Results

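Exposure to H2S on 5 days was set against 5 days of air in the nasal respiratory epithelium of the rat, 144 h after the first exposure began. The comparison holds 8 of the 23 arrays of the study. They were chosen by their titles, 4 arrays of animals given H2S (animals 23, 24, 25 and 26) against 4 of animals kept in air (animals 19, 20, 21 and 22). Each array holds RNA of a single animal, and nothing pairs the animals. All 8 were male Sprague-Dawley rats, with an age of 60 days in the sample labels and of 10 weeks in the design text. H2S was given by a nose-only system at 200 ppm for 3 h a day on 5 days, and the air animals went through the same schedule. The dose field of the air animals also reads 200 ppm, so their group rests on the titles. Epithelium was cut out by laser capture at the place where the gas injures the nose, its RNA was amplified in 2 rounds, and it was hybridized to Affymetrix Rat230_2 arrays. The comparison asks how the epithelium stood after repeated exposure.

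The respiratory epithelium of the nose is a sheet of ciliated, mucus-secreting and basal cells over a thin layer of connective tissue, glands, cartilage and bone. Basal cells divide after injury and give rise to secretory and ciliated cells. Multiciliated cells switch on transcription factors such as Foxj1, Rfx3 and Myb and then build axonemes, the microtubule core of the cilium, with the help of intraflagellar transport. H2S blocks cytochrome c oxidase, complex IV of the respiratory chain, and cells remove it in mitochondria through sulfide:quinone oxidoreductase. A keratinized, squamous lining covers the front of the nose.

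Signals are given as deposited, on a linear scale with a trimmed mean of about 500 on each array. Differences are H2S minus air on the log2(signal + 16) scale with their standard error, 4 animals against 4, from limma with 1 mean per group over all 23 arrays. The epithelial markers Epcam, Cdh1, Krt8, Krt18 and Krt19 were above the array median on all 8 arrays. Omp and Cnga2 of olfactory neurons and Cd79b of B cells were above it on 0 arrays. Other markers of olfactory epithelium and leukocytes were above it, Cyp2g1, Ptprc and Cd68 on all 8 and Gnal, Cd3e and S100a8 on 2. Of the markers of stroma, vessel, cartilage and bone, Col1a1, Col3a1, Dcn, Acan and Bglap were above it on all 8. Pecam1 and Col2a1 were above it on 2. The array of animal 22 stood apart. Its spike-in controls were 32.8 times those of the median array, its median correlation with the other 7 arrays was 0.698 against 0.818 to 0.888 for the others, and limma gave it an array weight of 0.203. RNA quality moved with the groups in some measures and not in others. The RNA integrity number was 5.6, 6.4, 5.1 and 6.9 in the air animals and 4.8, 5.1, 4.5 and 1.7 in the exposed animals 23 to 26, a difference of -1.98 (exact permutation test, two-sided, p = 0.0571, where 0.0286 is the smallest p that 4 against 4 allows). The log2 array median was 7.25 ± 0.135 (SD, n = 4) after H2S and 7.62 ± 0.328 (SD, n = 4) in air (exact p = 0.0571). Without animal 22 the exact p was 0.143 for the RNA integrity number and 0.143 for the array median. The log2 ratio of the 3′ to the 5′ control probe set of Gapdh was 2.59 ± 0.198 against 1.97 ± 0.673 (SD, n = 4 each, exact p = 0.143), and without animal 22 the exact p was 0.0286, the smallest that 4 against 3 gives here. The same ratio of beta-actin was 4.83 ± 0.906 against 5.19 ± 1.91 (SD, n = 4 each, exact p = 0.857). Its difference of -0.351 was 0.441 without animal 22 (exact p = 0.571). A limma fit that held the RNA integrity number as covariate called 0 of 19383 probe sets. The part of RNA quality in single values was not tested further, and results are given with and without animals 22 and 25.

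No gene passed the test. Of 19822 probe sets, 0 (0%) had an adjusted p under 0.05 in limma, 1546 had an unadjusted p under 0.05 (7.8%), and the smallest adjusted p was 0.19. Without animal 22 the count was 0 of 19475 (smallest adjusted p 0.181), without animal 25 it was 0 of 19739, and without both it was 0 of 19385. Over 11249 genes the median difference was 0.011 and 50.7% of the differences were positive. An unadjusted p under 0.05 was found on the higher side for 4.55% of genes and on the lower side for 3.81%, and all 4 exposed animals lay above all 4 air animals for 3.13% of genes and below them for 3.31%. Higher and lower therefore describe values here, not calls. Unless stated, the adjusted p of a named gene is 0.258 or above.

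Among the 20 genes with the smallest p, 14 were higher and 6 lower after H2S. Kif3a, a motor subunit of the kinesin that carries cargo along the axoneme, had signals of 136, 389, 275 and 333 in the air animals 19 to 22 and of 945, 1514, 492 and 1616 in the exposed animals 23 to 26. Its difference was 1.90 ± 0.462 (SE, adjusted p = 0.58), with the groups apart and animal 25 nearest to air. Akap14, an anchoring protein of the ciliary axoneme, read 160, 635, 218 and 321 in air and 1431, 2340, 702 and 1760 after H2S, a difference of 2.23 ± 0.522 (SE, adjusted p = 0.553) without overlap. Both differences were larger when animal 25 was left out, at 2.25 for Kif3a and 2.57 for Akap14. Cenpj, which builds centrioles, had signals of 534, 629, 332 and 242 in air and 1173, 996, 1043 and 1317 after H2S, again without overlap. Its difference was 1.44 ± 0.389 (SE), and 1.20 without animal 22. Ccdc88c, a Dishevelled-binding protein, lay at 897 to 2841 in air and 4764 to 5850 after H2S. Its difference was 1.60, and 1.28 without animal 22. In both genes animal 22 was the lowest air animal.

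Chaf1a, the large subunit of the factor that deposits histones on newly made DNA, had the smallest p of any gene represented. It read 38.6, 12.9, 38.3 and 75 in air and 135, 211, 254 and 367 after H2S, 4 animals above 4, with a difference of 2.21 ± 0.442 (SE, adjusted p = 0.258). The air signals were near the floor of the array, and the difference was 2.67 with a pseudocount of 1 and 1.52 with a pseudocount of 64. Psmc3ip, a partner of the recombinases that pair homologous DNA, had 284 to 534 in air and 615 to 3056 after H2S (difference 1.69). Further genes on the higher side were Tmem43, a protein of the inner nuclear membrane (678 to 2045 in air, 3394 to 7536 after H2S), and Rnf227 (18.0 to 196 and 268 to 462), both without overlap. Animal 22 was the lowest air animal in both. Their differences of 1.67 and 1.98 were 1.33 and 1.46 without it. The open reading frame C3h20orf96 lay at 19.5 to 120 in air and 164 to 652 after H2S. In 5 genes of the 20 the groups overlapped: Myo5b, a motor of recycling endosomes (difference 1.63), Tspo, a protein of the outer mitochondrial membrane (1.26), the LIM protein Csrp2 (1.54), C13h1orf116 (2.74) and C16h8orf48 (1.55).

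The 6 genes of the 20 that were lower after H2S did not overlap between the groups. Col9a3, a chain of cartilage collagen IX, had signals of 17141, 1255, 1788 and 619 in air and 383, 238, 285 and 223 after H2S, a difference of -2.94 ± 0.684 (SE, adjusted p = 0.553). Animal 19 was far above the other air animals, and the difference was -1.96 without it. Gpd1, the cytosolic glycerol 3-phosphate dehydrogenase, read 393, 368, 1316 and 498 in air and 185, 197, 171 and 123 after H2S (difference -1.65 ± 0.44, SE). Lrrc38, an auxiliary subunit of BK potassium channels, differed by -2.04 and Fsd1 by -2.11, both with exposed signals near the floor, where a pseudocount of 64 gave -1.35 and -1.40. Zfp385a, a zinc finger protein, differed by -1.49. The unnamed locus LOC102550392 was steady within each group, at 235 to 286 in air and 89.5 to 115 after H2S (difference -1.25 ± 0.33, SE).

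**Figure D1:**
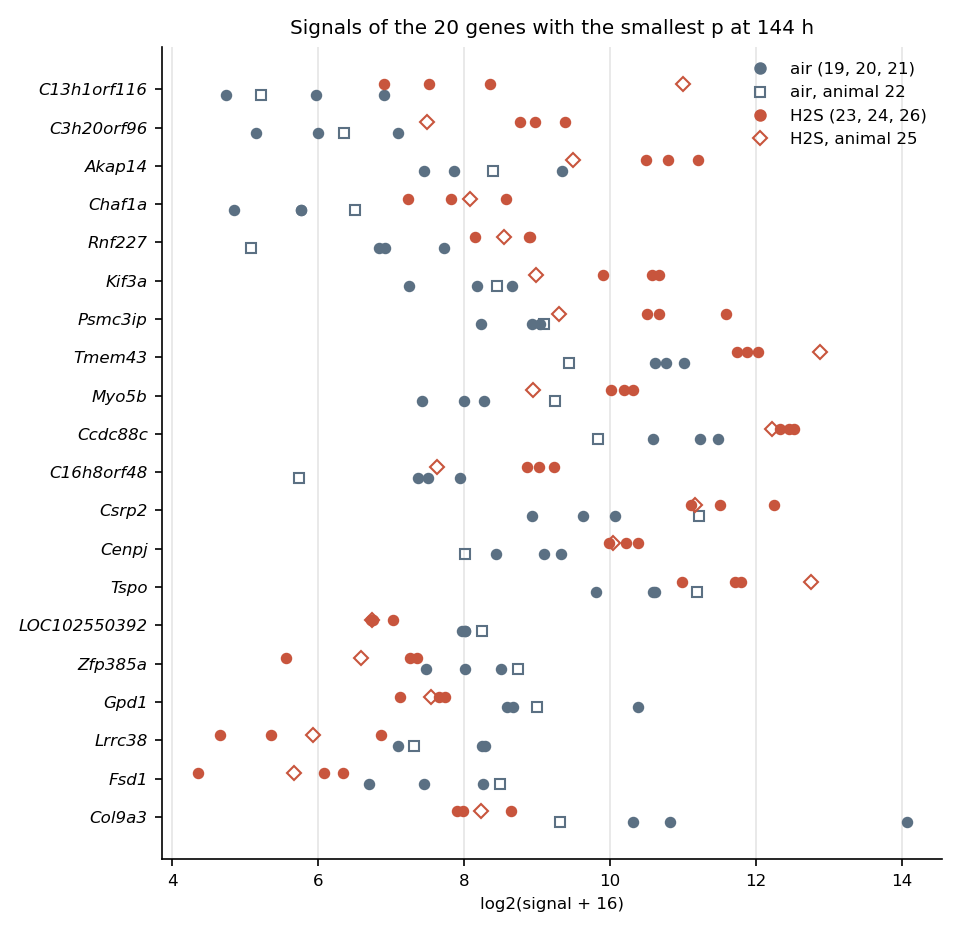
Log2(signal + 16) of the 20 genes with the smallest p at 144 h, ordered by their difference, with 1 point per animal: 4 air animals in grey-blue (open square, animal 22) and 4 exposed animals in red (open diamond, animal 25). In 15 of the 20 genes the red and grey-blue points do not overlap, and in Col9a3 animal 19 lies at a signal of 17141.

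A further 3 probe sets that represent no gene by the rule used here reached the threshold under some settings, and they are named after their values were seen. A probe set of Mkrn1, an RNA-binding ubiquitin ligase, read 398, 298, 586 and 863 in air and 1707, 1678, 1474 and 1513 after H2S, close together in the exposed animals. Its difference was 1.65 ± 0.336 (SE, adjusted p = 0.258). It rose with array weights (adjusted p = 0.00574), without animals 18 and 22 (0.0268) and without animal 22 with the array median as a covariate (0.0257), 3 of the 29 fits that included it. The other 3 probe sets of Mkrn1 differed by 0.94, 0.28 and 0.48. A probe set of the actin-binding protein Lasp1 read 189, 58.0, 252 and 315 in air and 3.22, 11.1, 8.63 and 2.02 after H2S, at the floor of the array in all 4 exposed animals. Its difference was -3.13 ± 0.548 (SE, adjusted p = 0.19, the smallest of all), and it fell past the threshold only without animal 20 (adjusted p = 0.0162), 1 of the 18 fits whose filter kept it. Without animal 22 the filter dropped it. The other probe set of Lasp1 differed by 0.76, so the gene has no single direction. A probe set with no symbol, higher by 2.45, also passed only without animal 20 (adjusted p = 0.014).

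Ciliated cell genes lay mostly higher after H2S, with a median difference close to that of the squamous list described further on (1.13 and 1.12). The list covers axonemal dyneins, radial spokes, tektins and their transcription factors, and 31 of its 60 symbols were measured. Of these, 30 were higher after H2S and 12 had an unadjusted p under 0.05 on that side (4.55% of all genes), with 0 past the adjusted threshold and a median difference of 1.13 against 0.011 over all genes. The count of 12 depended on single animals. It was 1 without animal 19 (3.79% of all genes), 4 without animal 23 (3.58%), 5 without animal 26 (2.81%), 6 without animal 24 (3.15%) and 19 without animal 22 (4.91%), and the higher members numbered 26 without animal 19 and 27 without animal 26. In these bulk samples, more ciliated cells and more of each RNA per cell cannot be told apart. The level of the list in an animal (the average log2 value of the members, less the average over every gene of the array) was -0.651, 1.01, 1.18 and 2.17 in the air animals 19 to 22 and 2.27, 2.20, 0.909 and 2.40 in the exposed animals 23 to 26. The exposed animals 23, 24 and 26 lay above all air animals and animal 25 lay below 3 of them. No member kept the 4 exposed animals above the 4 air animals (3.13% of all genes).

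The spread within each group followed single animals across the whole list. Animal 25 was the lowest exposed animal for all 31 members, against 29.8% of all genes, and animal 19 was the lowest air animal for all 31, against 25.4% of all genes. Animal 22 was the highest air animal for 24, against 37.8% of all genes. The median difference was 1.55 without animal 22, 1.48 without animal 25, 1.94 without both, and 0.649 without animal 19. Without animal 25, 14 of 31 members did not overlap (6.99% of all genes on that side). Without animals 22 and 25 it was 26 of 31 (12.2% of all genes). It was 5 without animal 22 alone (6.38% of all genes) and 0 without animal 19. Leaving out animals that are extreme in their group across the list favours separation, so these counts are no test of a difference. A fit that took the RNA integrity number in as a covariate gave a median of 1.41.

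Among regulators of the ciliated list, Rfx3 read 224, 566, 398 and 250 in air and 962, 950, 502 and 1451 after H2S, a difference of 1.39 ± 0.46 (SE, adjusted p = 0.58). Only animal 25 fell within the air range. Foxj1, the master regulator of motile cilia, had a difference near 0. Animals 19 and 20 were lowest in air with nearly equal signals, animal 22 was the highest air animal and animal 25 the lowest exposed animal. Foxj1 read 594, 596, 1155 and 2512 in air and 1055, 1103, 578 and 1746 after H2S, a difference of 0.045 ± 0.491 (SE). The difference was 0.479 without animal 22 and 0.757 without animals 22 and 25. It was -0.204 without animal 19, -0.203 without animal 20, -0.2 without animal 26 and -0.043 with quantile normalization. Myb, which acts early in ciliated cell formation and is named here after its values were seen, read 200 to 1453 in air and 485 to 3481 after H2S (difference 1.49).

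Structural members shared the low places of animals 19 and 25, while the order of the other animals varied. Ropn1l, a radial spoke protein, read 310, 1004, 836 and 1838 in air and 3340, 3044, 967 and 4634 after H2S, a difference of 1.62 ± 0.569 (SE). Tubb4b, the tubulin of axonemes, read 5015, 8894, 10781 and 33489 in air and 24691, 31911, 16234 and 39341 after H2S (1.24 ± 0.423, SE), and animal 22 alone among the air animals reached the exposed range. The difference of Tubb4b was 1.76 without animal 22. Dnah2, a dynein heavy chain, differed by 1.86, Rsph1, a radial spoke head protein, by 1.53, and the adenylate kinase Ak7 by 1.51, all 3 named after their values were seen. The only member below 0 was Dnali1, at -0.247, and Dnai1 stood at 0.001.

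Intraflagellar transport and BBSome genes, a list drawn up after values were seen, gave values on the same side. Of 32 genes, 29 were higher after H2S with a median difference of 0.894, 14 had an unadjusted p under 0.05 on that side (4.55% of all genes), and 3 did not overlap between the groups (3.13% of all genes). The count of 14 was 6 without animal 19 (3.79% of all genes), 9 without animal 26 (2.81%) and 21 without animal 25 (5.01%). The 3 were Kif3a, the BBSome subunit Bbs7 and Ift88, a core subunit of the transport train. Bbs7 read 476, 1100, 739 and 1123 in air and 2227, 2069, 1294 and 2649 after H2S (difference 1.28 ± 0.357, SE), and its other probe set differed by 0.113. Ift88 read 608, 929, 709 and 827 in air and 1408, 1701, 994 and 1928 after H2S (difference 0.934 ± 0.373, SE). In both genes animal 25 was the exposed animal nearest to air, as it was the lowest exposed animal for 29 of the 32. Dync2h1, the motor of return transport, which was named after its values were seen, differed by 1.52, and its exposed signal in animal 25 (593) lay within the air range of 261 to 737. The median of the list was 1.00 without animal 22, 1.18 without animal 25 and 0.64 without animal 19.

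**Figure D2:**
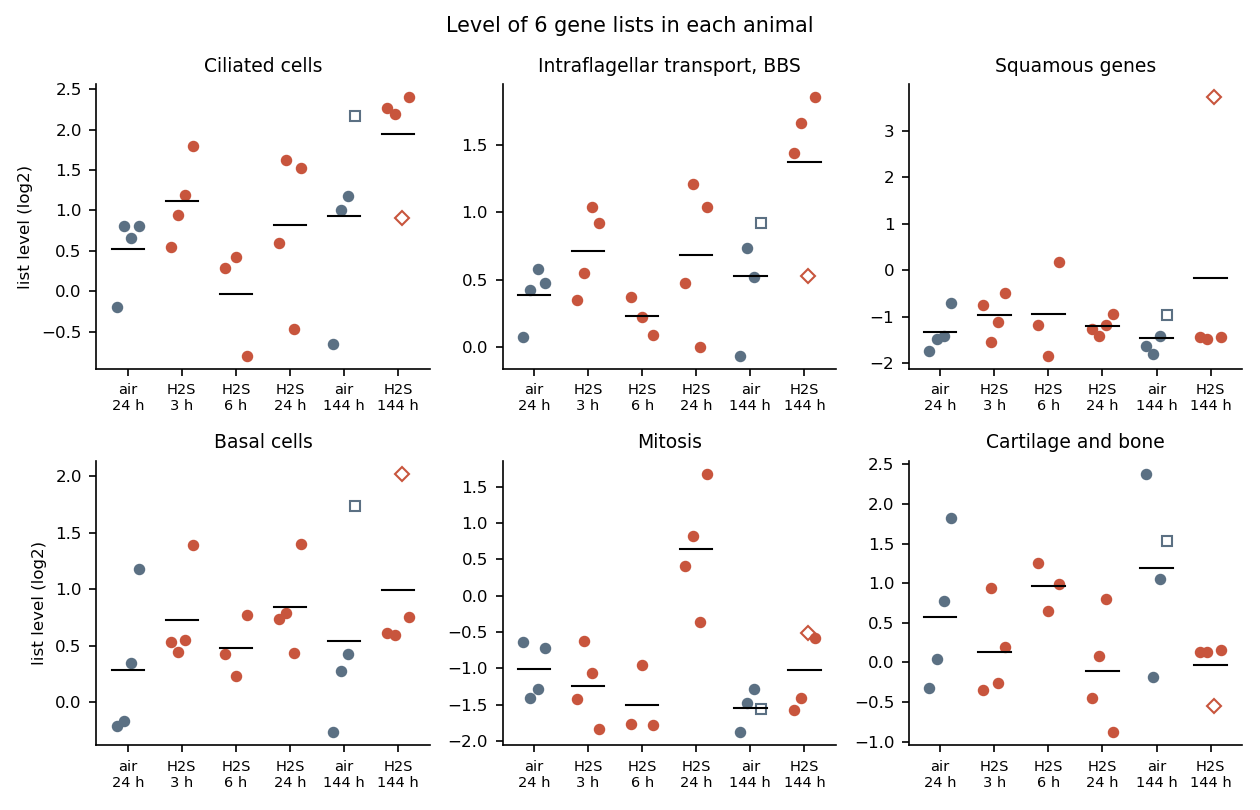
Level of 6 gene lists (average log2 value of the members, less the average over every gene of the array) in each of the 23 animals by group, air in grey-blue and H2S in red, with black bars for group means. Among ciliated genes the 3 filled exposed points at 144 h lie between 2.20 and 2.40 and animal 25 (open diamond) at 0.909, and among squamous genes animal 25 stands alone at 3.72. Animal 22 is the open square.

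Squamous genes had nearly the same median difference, 1.12, and it rested on animal 25. All 19 measured members of 34 were higher on average after H2S, 4 with an unadjusted p under 0.05 (4.55% of all genes). Without animal 25 the filter kept 16 of the 19, so the rest had passed it only through that animal. The median of the 16 was -0.034 and 8 were positive (50% of all genes). On the higher side 1 had an unadjusted p under 0.05 (5.01% of all genes) and 0 did not overlap (6.99% of all genes). The level of the list was 3.72 in animal 25, -1.45, -1.48 and -1.43 in the other exposed animals and -1.81 to -0.959 in air. Animal 25 had the highest signal of all 8 animals for 18 of the 19 members, against 10.3% of all genes. Among the genes with the smallest p in the list, Sbsn, a secreted protein of the upper epidermis, read 15.0 to 146 in air, 215, 106 and 161 in the exposed animals 23, 24 and 26, and 17219 in animal 25. Ppl, a plakin of the cornified envelope, read 61.7 to 1050 in air, 945, 1266 and 1168 in those 3 animals and 15436 in animal 25. Sfn, the epithelial 14-3-3 protein, read 39.4 to 218 in air, 174 to 398 in the 3 animals and 3616 in animal 25. In Ppl and Sfn the 3 other exposed animals also lay toward the high end of air, with differences of 1.60 and 1.19 without animal 25. The lowest air signal of both genes was that of animal 22. Without animals 22 and 25 the differences were 0.838 for Ppl and 0.825 for Sfn.

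Several other genes of cornifying epithelium, named after their values were seen, were at high signal in animal 25 alone. Krt10, a keratin of differentiated epidermis, read 44867 in animal 25 and 281 to 378 in the other 7 animals. The cornified envelope protein Sprr1a read 81140 there and at most 1031 elsewhere, and its difference of 1.20 became -1.34 without animal 25. For Sprr3, of the same family, animal 25 had 14747 and the others at most 293, and the difference turned from 1.11 to -1.22. Krtdap, a keratinocyte differentiation protein, read 34812 in animal 25 and at most 372 elsewhere. Serpinb2, a serine protease inhibitor, read 13829 in animal 25 and at most 10.4 elsewhere, and Krt6c, a keratin of stressed and stratified epithelium, read 40302 against at most 553. Krt13, a keratin of moist squamous linings, was not kept by the filter and had 17974 in animal 25 and 10.9 to 198 in the others. Ivl, another squamous marker not kept by the filter, did not share this and read 74.2 in animal 25, within the air range of 17.6 to 128. In all, 35 of 11249 genes in animal 25 exceeded the other 7 animals by 3 or more log2 units, against 15 in animal 19, 25 in animal 21, 2 in animal 22 and 0 in each of the remaining 4. The part of squamous tissue in the values of animal 25 was not tested.

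Basal cell genes as a list had their highest level in animal 25, which was the highest of the 8 animals for 6 of the 14 measured members, against 5 for animal 22 and 3 for the other animals. Krt5, a keratin of basal cells, read 310, 279, 622 and 3482 in air and 497, 604, 16314 and 911 after H2S, and its difference of 1.12 ± 0.95 (SE) was -0.034 without animal 25. Krt14, its partner, read 197, 863, 1073 and 7772 in air and 2752, 1789, 32686 and 1694 after H2S (1.87 ± 0.952, SE). Animal 22 was the highest air animal in both, and without it the 4 exposed animals lay above the air animals for Krt14. Krt15 read 2014 to 20446 in air and 11875 to 56310 after H2S, and the water and glycerol channel Aqp3 read 753, 2664, 2764 and 5694 in air and 5467, 5387, 12073 and 9422 after H2S (1.67 ± 0.581, SE). For Aqp3 the exposed animals lay above all air animals but animal 22. Over the 14 members the median was 0.158, with 9 positive. It was 0.66 without animal 22, -0.075 without animal 25 and -0.053 without animal 19, so the side of the list depends on single animals.

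**Figure D3:**
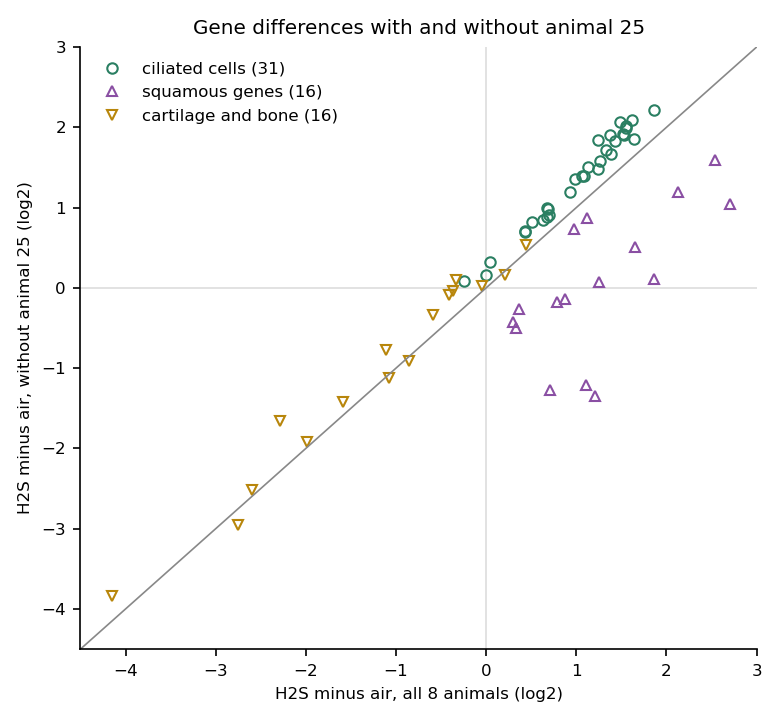
Difference (H2S minus air, log2) of each gene with all 8 animals on the horizontal axis and without animal 25 on the vertical axis, for the genes measured in both, with the line of equal values. Ciliated genes lie above the line (median 1.13 with and 1.48 without animal 25), squamous genes lie below it (1.12 and -0.034), and cartilage and bone genes lie along it (-0.969 and -0.838).

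Secretory and gland genes had no common direction. Of 22 secretory and goblet genes 12 were positive, with a median of 0.099. On the higher side 1 member had an unadjusted p under 0.05 (4.55% of all genes). Muc5ac, the gel-forming mucin of goblet cells, spanned 95.2 to 10732 in air and 632 to 3274 after H2S, so the spread among air animals held all exposed animals. Muc5b, the other gel-forming mucin, read 4596, 3713, 4255 and 4346 in air and 8944, 4366, 4877 and 1520 after H2S, a difference of -0.03 ± 0.697 (SE) whose sign changed with the setting. Muc4, a membrane mucin, read 130 to 1541 in air, 682 to 937 in the exposed animals 23, 24 and 26 and 5890 in animal 25. Cyp2f4, a cytochrome P450 of secretory cells, differed by 0.814. Bpifa1, an abundant secreted protein of nasal fluid, read 516960 in animal 22 and 51142 to 109380 in the other 7, and its difference of -0.972 was -0.304 without animal 22. Scgb1a1, the club cell secretoglobin, was at 32.5 or less on every array and was not tested. Among 6 nasal gland genes 3 were positive, and the odorant-binding protein Obp1f was lower without overlap, with 95977, 98955, 157670 and 104440 in air and 77797, 76255, 85864 and 54209 after H2S, a difference of -0.625 ± 0.611 (SE) that was 0.184 with quantile normalization. The secreted protein Pip and the odorant-binding protein Obp3 differed by 1.58 and 0.428, and by -0.359 and -0.688 without animal 22.

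Cell division genes were above air in most cases at 144 h, as they were at 24 h after a single exposure, and the differences were smaller in value at 144 h. Of 35 mitosis genes 31 were positive at 144 h with a median of 0.465 (0.274 without animal 25, 0.252 without animal 26), and all 35 were positive at 24 h with a median of 1.86. The level of the mitosis list was -1.58, -1.41, -0.511 and -0.584 in the exposed animals 23 to 26 and -1.88 to -1.29 in air at 144 h, so that animals 25 and 26 lay above air and animals 23 and 24 within it. At 24 h it was 0.637 ± 0.846 after H2S and -1.01 ± 0.393 in air (SD, n = 4 each). Racgap1, which drives cytokinesis, read 322, 435, 528 and 566 in air and 779, 819, 1198 and 1637 after H2S (1.20 ± 0.406, SE), with no overlap. Kif23, its kinesin partner, read 154, 496, 517 and 401 in air and 715, 575, 1429 and 1122 after H2S (1.30 ± 0.462, SE), also apart. Cdca8, a subunit of the chromosomal passenger complex, differed by 1.34 with overlap. Mki67, the proliferation antigen, read 209, 409, 506 and 378 in air and 459, 296, 1293 and 552 after H2S (0.621 ± 0.632, SE), and its difference at 24 h was 2.06.

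DNA replication genes stood closer to air, with 19 of 31 positive and a median of 0.178 (0.026 without animal 25), against 28 positive and a median of 1.24 at 24 h. Beside Chaf1a, Dut, which keeps uracil out of DNA, read 1967, 1808, 1560 and 879 in air and 4346, 4740, 2259 and 4255 after H2S, apart with animal 25 lowest (1.33 ± 0.449, SE). Fen1, the flap endonuclease, differed by 0.912 with overlap. Testing the H2S effect at 144 h against that at 24 h called 0 of 19822 probe sets (0%). The unadjusted p was under 0.05 for 929 of them (4.69%), and the smallest adjusted p was 0.946. The 2 effects share no animals, and the labels list 5 treatment days for 3 animals of the earlier times (6, 14 and 18).

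Targets of NRF2, the transcription factor of the oxidant response, were positive in 23 of 30 cases with a median of 0.42, and 1 of the 30 did not overlap on the higher side (3.13% of all genes). Slc7a11, the cystine importer, read 111, 110, 25 and 22.5 in air and 159, 160, 460 and 315 after H2S, without overlap (1.90 ± 0.593, SE, adjusted p = 0.58). Nqo1, a quinone reductase, read 1440, 4074, 2342 and 12004 in air and 8848, 12788, 7727 and 9835 after H2S (1.42 ± 0.513, SE), and the exposed animals lay above all air animals but animal 22. The aldehyde dehydrogenase Aldh3a1 had the same order, 391, 424, 590 and 3115 in air against 1261, 1976, 2568 and 2644 (1.42). Without animal 22 the differences were 2.00 for Nqo1 and 2.10 for Aldh3a1, the median of the list was 0.648, and 10 of 29 targets did not overlap on the higher side (6.38% of all genes). That count thus rests on leaving out 1 array. Hmox1, heme oxygenase, read 199 to 526 in air and 345, 405, 1257 and 387 after H2S, with animal 25 highest (0.903 ± 0.675, SE).

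Heat shock genes lay mostly on the higher side. Of 22 members 17 were positive with a median of 0.333, and 14 were positive without animal 22. With all animals 3 members were higher (3.13% of all genes) and 1 lower (3.31%) without overlap. The higher count was 6 without animal 20 (6.41% of all genes) and 5 without animal 23 (4.46%). Hspa1a, the inducible HSP70, named after its values were seen, read 465, 537, 686 and 554 in air and 1108, 1076, 2356 and 2742 after H2S (1.56 ± 0.562, SE). Its co-chaperone Hspa4l read 36.5, 182, 155 and 171 in air and 415, 551, 237 and 768 after H2S (1.80 ± 0.608, SE), and Hsph1, of the same HSP110 family, differed by 1.38 with overlap, while its other probe set gave -0.011. Cryab, a small heat shock protein, lay on the other side, with 485, 628, 2120 and 1399 in air and 230, 285, 396 and 257 after H2S (-1.72 ± 0.478, SE, adjusted p = 0.58). All 4 of these genes kept their side without animal 22 and without animal 25.

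Genes of the unfolded protein response were lower on balance, 20 of 29, with a median of -0.252 that was 0.09 with median centring of the arrays and 0.124 without animal 19. Without animal 22 the median was -0.459, 25 of 29 were lower and 8 were lower without overlap (6.47% of all genes), against 2 with all animals (3.31%). Pdia4, a disulfide isomerase, read 886, 918, 784 and 760 in air and 361, 398, 494 and 678 after H2S, apart (-0.81 ± 0.377, SE). Dnajc3, a co-chaperone of the endoplasmic reticulum, was also apart, at 5629 to 11791 in air and 2166 to 4486 after H2S (-1.05). Asns, asparagine synthetase, differed by -1.17 with overlap. Of 16 p53 and apoptosis genes 11 were positive (median 0.19). Mdm2, the ubiquitin ligase that restrains p53, read 1765, 2794, 2276 and 1561 in air and 4230, 4822, 2996 and 3920 after H2S (0.938 ± 0.297, SE), apart, and Cdkn1a, the p21 inhibitor of the cell cycle, differed by 0.987 with overlap and by -0.606 in its other probe set. Bcl2l11, the pro-apoptotic BIM, was apart at 453 to 653 in air and 738 to 909 after H2S (0.531), though the mean of its probe sets gave -0.04. Immediate-early genes went both ways, 14 positive of 26 (median 0.049). Fos differed by 1.88, with 19.7 in animal 22 and 373 to 674 in the other air animals, Fosl1 by -1.32, and Ier3 by 1.11.

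Genes for handling sulfide had 3 positive of 12 measured, with a median of -0.232 that was 0.068 without animal 22 and 0.109 with median centring. Sqor, the sulfide:quinone oxidoreductase, was one of the 3. It read 1057, 1214, 833 and 1077 in air and 1633, 1435, 1809 and 1481 after H2S, 4 animals above 4, with a difference of 0.604 ± 0.485 (SE, adjusted p = 0.785) against 1.46 at 24 h. Sod2, the mitochondrial superoxide dismutase, is counted in this list although it acts on superoxide. It was higher without overlap, at 383 to 752 in air and 845 to 1557 after H2S (1.00). Tstd3, a rhodanese-domain protein, was lower without overlap, with 235, 218, 219 and 254 in air and 135, 99.2, 137 and 90.1 after H2S (-0.931 ± 0.457, SE), and its relative Tstd1 differed by -0.673 with overlap.

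Complex IV, the enzyme that H2S blocks, showed no shared difference. Of 25 subunits and assembly factors 13 were positive, with a median of 0.001. Cox4i1, a core nuclear-coded subunit, read 3320, 2275, 9190 and 3182 in air and 4656, 2886, 2374 and 5464 after H2S (-0.085 ± 0.517, SE). Surf1, an assembly factor, was lower and apart, with 1886 to 2649 in air and 1419 to 1508 after H2S (-0.567). Ndufa4, counted with complex IV, differed by 0.687. The muscle isoform subunit Cox6a2 differed by -2.18, with 3250 in animal 21 and 320 or less in all others. The other respiratory chain genes had 25 positive of 55 and a median of -0.01. Of these, Ndufa7 of complex I was lower and apart (2263 to 5096 in air, 1422 to 1926 after H2S) and Ndufb4 differed by -0.752, while Ndufa5, also of complex I, differed by 0.796 with overlap. Among 28 genes of glycolysis and hypoxia 11 were positive (median -0.081, -0.259 without animal 22 and 0.261 with median centring). Egln3, a prolyl hydroxylase of the hypoxia response, read 389, 284, 387 and 148 in air and 75.1, 114, 104 and 63.8 after H2S (-1.54 ± 0.474, SE), apart. The muscle phosphofructokinase Pfkm, at 734 to 2731 in air and 479 to 696 after H2S (-1.13), was apart as well, and Tpi1 of glycolysis differed by -0.845 with overlap.

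Junction and polarity genes were positive in 23 of 30 cases (median 0.323, 0.203 without animal 25). Cdh1, E-cadherin, read 1195, 2729, 1778 and 1082 in air and 3434, 4776, 4371 and 4368 after H2S (1.40 ± 0.464, SE), apart with and without animals 22 and 25. Dsp, the desmosomal plakin, read 1414 to 2021 in air, 2560, 3059 and 2754 in the exposed animals 23, 24 and 26 and 17775 in animal 25. Its difference of 1.40 was 0.731 without animal 25. Pard3, a polarity scaffold, was apart by a smaller amount (0.728), and its other probe set gave -0.024. Of 24 Notch pathway genes 16 were positive (median 0.103), with Dtx4, a Deltex ligase, apart at 172 to 226 in air and 256 to 462 after H2S, and Hey1, a Notch target, different by 0.784 with overlap. Adam17, a sheddase, read 3703 in animal 25 and 472 to 1580 in the other 7 (0.705). Ion and water transport genes had 6 positive of 18 (median -0.268, -0.168 without animal 22 and 0.073 with median centring). Aqp5, the water channel of secretory cells, read 1895, 2173, 1993 and 2771 in air and 1122, 1783, 864 and 1234 after H2S, apart (-0.845 ± 0.389, SE). The water channel Aqp4 differed by 0.908 with overlap. Carbonic anhydrase Car2 differed by -1.92, with 3322 and 3693 in animals 19 and 20 and 272 to 733 in the other 6.

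Repair and remodelling genes had 18 positive of 29 (median 0.261, -0.019 without animal 25), and 2 did not overlap on the higher side (3.13% of all genes). Without animal 22 and without animal 23 it was 4 (6.38% and 4.46% of all genes). Anxa1, an annexin that damps inflammation, read 4763, 12352, 6144 and 7671 in air and 14457, 20534, 67462 and 26884 after H2S (1.90 ± 0.559, SE). Tissue factor, F3, read 594, 4245, 2499 and 2275 in air and 6879, 7057, 5618 and 9854 after H2S (1.88 ± 0.626, SE). Both stayed apart without animal 22 and without animal 25, with differences of 1.46 for Anxa1 and 1.99 for F3 in the latter case. Anxa2 differed by 1.21 with overlap, and by 0.041 in its other probe set. Genes of xenobiotic metabolism were positive in 26 of 41 cases (median 0.285, 0.484 without animal 22). The flavin monooxygenase Fmo2 differed by 1.26, the sulfotransferase Sult1c2 by 2.12 and the alcohol dehydrogenase Adh7 by 1.49, and all 3 overlapped. Cyp2a3, the main P450 of the nasal mucosa, read 9730 to 16929 in air and 7371 to 17837 after H2S.

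Inflammatory and immune lists had medians between -0.195 and 0.11 with all animals, and single animals moved them. Of 29 cytokine and NF-kB genes 16 were positive (median 0.11, -0.049 without animal 25 and 0.503 without animal 26). Tnfaip2, a TNF-induced gene, read 136, 280, 225 and 141 in air and 574, 386, 711 and 530 after H2S (1.45 ± 0.42, SE), apart with and without animals 22 and 25, but its other probe set differed by -0.162, so the gene has no single direction. Ccl20, a chemokine made by epithelia, read 51.7, 152, 325 and 50.5 in air and 1613, 244, 765 and 168 after H2S, with overlap, and Il1b read 197 to 442 in air and 177 to 734 after H2S. Interferon-response genes had 15 positive of 28 (median 0.013), and without animal 22 they had 20 of 28 and a median of 0.306. Ifit2 reached 7351 in animal 25 and 264 to 1083 in the other 7. Ifitm1 differed by 0.932 and Oas1a, a sensor of viral RNA, by -1.17. Myeloid genes had 8 positive of 26 (median -0.195, -0.07 without animal 22 and 0.147 with median centring) and lymphoid and MHC II genes 10 of 23 (median -0.152, 0.094 without animal 22 and 0.189 with median centring). Csf1r of macrophages differed by -0.935, the Fc receptor Fcgr3a by -0.825 and S100a9, a neutrophil protein, by -1.30. S100a9 read 2772 in the air animal 19 and at most 417 in the other 7 animals. Gzmk of T cells differed by -1.36, RT1-DMa, which loads MHC II, by -0.752 and Ciita, the MHC II transactivator, by 1.13 (-1.002 in its other probe set), and all 6 of these overlapped. Ribosomal proteins, a housekeeping group, had 22 positive of 40 and a median of 0.033, with Rps15a different by 0.763, Rps3 by 0.674 and Rps15 by -0.683.

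Cartilage and bone genes had the lowest median of the lists with all animals, -0.969, with 14 of 16 members lower, 5 of them at an unadjusted p under 0.05 (3.81% of all genes). That count was 1 without animal 19 (3.42% of all genes), 2 without animal 25 (3.26%) and 2 without animal 26 (2.7%), and without animal 19 the median of -0.548 was no longer the lowest. The differences were largest in genes where animal 19 was far above the other air animals. Col10a1, the collagen of hypertrophic cartilage, read 67084, 59.9, 477 and 154 in air and 8.22, 55.4, 7.44 and 89.5 after H2S (-4.15 ± 1.54, SE), and its difference was -2.03 without animal 19. Col2a1, the main cartilage collagen, read 11132 in animal 19 and 32.8 to 403 in the other air animals, and 12.1 to 90.2 after H2S (-2.76, or -1.23 without animal 19). Acan, aggrecan, and Cnmd, chondromodulin, both named after their values were seen, had 9818 and 8919 in animal 19 and at most 761 and 350 elsewhere. Comp, a matrix protein of cartilage and tendon, was the 1 member without overlap (3.31% of all genes on the lower side). It read 593, 152, 673 and 232 in air and 122, 86.4, 4.40 and 90.8 after H2S (-2.29 ± 0.828, SE). The list level was 2.38, -0.18, 1.05 and 1.53 in air and 0.131, 0.132, -0.556 and 0.162 after H2S, so 3 of 4 air animals lay above all exposed animals. The median stayed negative without each animal in turn, from -1.16 to -0.548. Animal 19 was also the air animal with the lowest ciliated level, and the part of captured cartilage in the ciliated values was not tested.

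Stroma and vessel genes were lower in 20 of 27 cases (median -0.509, -0.167 with median centring), as were collagens, a list drawn up after values were seen, in 27 of 36 (median -0.433, -0.092 with median centring). Col6a1, a collagen of the connective tissue, differed by -0.996 and Pdgfrb, the receptor of pericytes and fibroblasts, by -0.814, and the matrix protein Fbln1 by -0.758, all with overlap, and the other probe set of Fbln1 gave 0.307. Olfactory genes had 5 positive of 14 (median -0.298, -0.092 without animal 22 and 0.043 with median centring), with Ncam1, a neural adhesion molecule, different by -1.48, and the G protein subunits Gnal and Gng8 by -0.943 and -0.821, all with overlap, though the other probe set of Gnal gave 0.495. The 2 blood genes measured, Alas2 of heme synthesis (0.331) and the globin Hbb (0.106), were both positive, with a median of 0.219 that was -0.086 without animal 22. The cartilage, stroma and collagen lists thus had negative medians. The epithelial markers did not all lie on the same side. Cdh1 was higher without overlap. Epcam read 5833 to 13384 in air and 11287 to 14704 after H2S. Krt8 read 3655 to 6313 and 4332 to 7360, and Krt19 read 352 to 6814 and 2422 to 4083. These overlapped and were higher on average. In Krt8 and Krt19 animal 22 alone among the air animals reached the exposed range. Krt18 was lower on average, at 8341, 11322, 7579 and 16774 in air and 8055, 8649, 4860 and 7917 after H2S. The share of each tissue in the captured cells was not tested. Median centring moved the median of all genes from 0.011 to 0.352, and the medians of lists moved up with it.

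**Figure D4:**
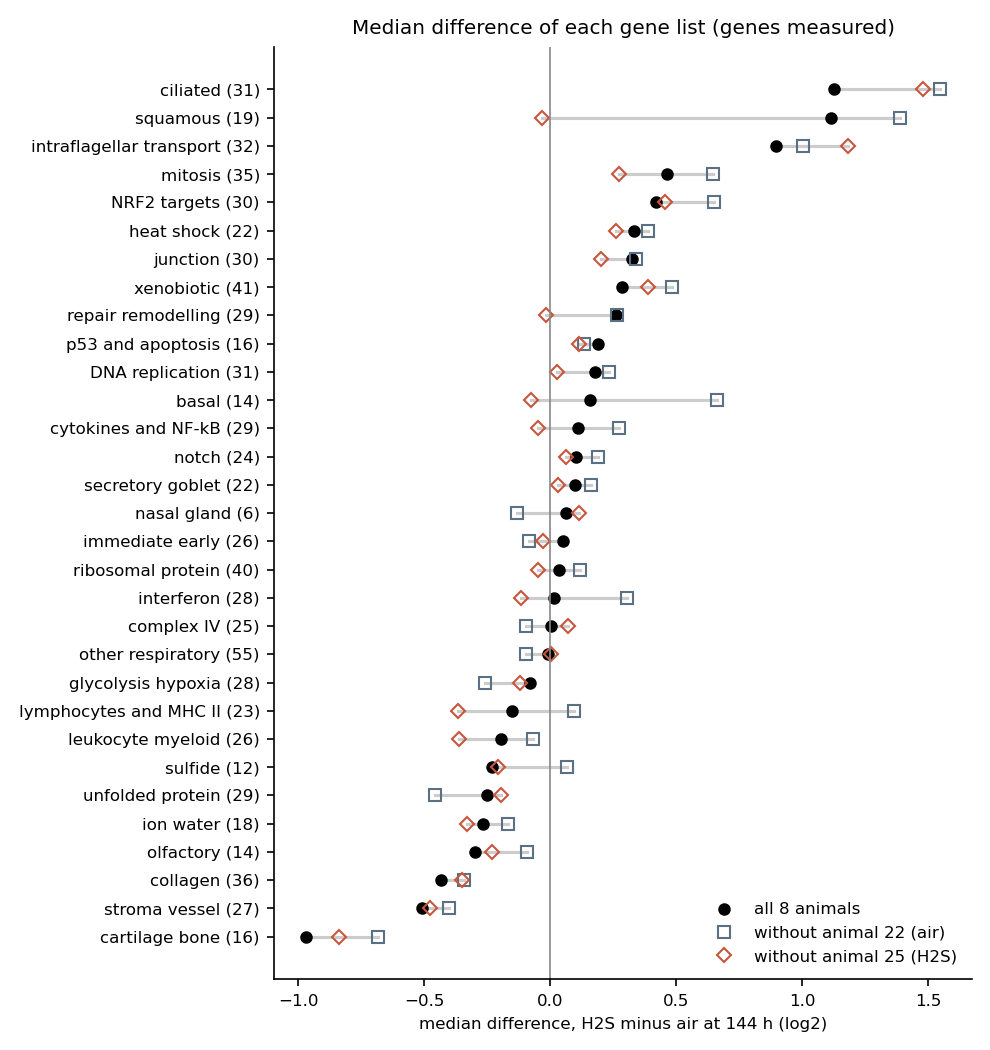
Median difference (H2S minus air at 144 h, log2) of each gene list, with the number of genes measured in parentheses, for all 8 animals (black circles), without animal 22 (open squares) and without animal 25 (open diamonds). The ciliated and cartilage lists stay at the 2 ends, at 1.13 and -0.969 with all animals, while the squamous list goes from 1.12 to -0.034 without animal 25.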

How the data were processed

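Per the deposited table, values are intensity on a linear scale, 1 signal per probe set for each of 23 arrays, with GCOS 1.0 named in the submitters' processing notes and its settings not given in the sources used here. With 2% trimmed from either end, the mean signal of every array was about 500, so no further normalization was applied. Log2 of the intensity plus 16 was used, a scale that understates differences of low signals. The filter asked that a probe set exceed its array's median in 3 or more arrays, which left 19822 of 31099; 57 controls were dropped. Gene symbols came from the platform's probe table, where 20832 probe sets had 1 symbol. Where several such probe sets of a gene passed, the one with the highest mean stood for it, which gave 11249 genes. Genome positions and sequences were not used here.

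The fit used limma's lmFit and eBayes (version 3.58.1, R 4.3.3), two-sided, with Benjamini-Hochberg adjustment over all probe sets tested and a threshold of 0.05. All 6 groups shared 1 estimate of the spread, and the script was tested on simulated data. The 2 comparisons fitted were H2S against air at 144 h and its difference from that at 24 h. The labels give 1 animal per array and do not say whether animals shared an exposure run. The number of arrays limits the precision.

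The comparison, the 30 gene lists and the 2 lists added later were chosen with earlier results of these data known. Lists are described by counts and medians, with no test. Named are the 20 genes with the smallest p, the 3 members of each list with the smallest p and 14 preset genes. Other names are said to be chosen after their values were seen. Other settings were other pseudocounts, filters, normalizations, covariates, array weights and subsets of arrays, each animal left out in turn, and 6 combinations without animal 22, which were chosen after seeing the data.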

Additional observations from a re-analysis of the deposited data

Results flagged for a closer look

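Single animals stood apart from the other 3 of their group in 40 of 344 tests, where Dixon's ratio (the gap to the nearest animal over the range of the group) passed the 95% critical value for 4 samples. Chance gives about 1 in 20 for items not chosen on their values, but 38 of the tests, with 13 of the 40, were of genes named after their values were seen, several because 1 animal was extreme. The other 306 tests gave 27, most of them on genes chosen for a small p at 144 h, and tests of genes of one list are not independent. The share is therefore no test of the pattern. No explanation was tested.

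Animal 25 was the exposed animal set apart for most. It was highest for the squamous list (ratio 0.99), the basal list (0.886), Serpinb2 (0.978), Calml5 (0.972), Krt10 (0.954), Sprr3 (0.919), Krt6c (0.905), Ppl (0.896), Sprr1a (0.881), Sbsn (0.872) and Krtdap (0.861). It was also highest for the basal keratins Krt15 (0.945), Krt14 (0.837) and Krt5 (0.82904), and for Adam17 (0.935), Dsp (0.908), Hmox1 (0.878) and Muc4 (0.854). Calml5, a calmodulin-like protein of epidermis named after its values were seen, read 30738 in animal 25 and at most 275 in the other 7. It was lowest for the cartilage and bone list (0.957), the ciliated list (0.864), Fmo2 (0.89), Hsph1 (0.886), Ak7 (0.882), Dut (0.854) and Comp (0.845).

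Among the other exposed animals, animal 24 was highest for the secretory list (0.891) and LOC102550392 (0.894), and animal 26 lowest for Col2a1 (0.832). In air, animal 19 was highest for Dnajc3 (0.925), for the cartilage cytokine-like protein Cytl1 (0.905, signal 55207 against at most 1182 elsewhere) and for fibronectin, Fn1 (0.833, 31385 against at most 2460), and lowest for Dnah2 (0.949), Calml5 (0.941) and Hspa4l (0.889). Cytl1 and Fn1 were named after their values were seen. Animal 21 was highest for the complex IV list (0.869) and Obp1f (0.83) and lowest for Ier3 (0.87). Animal 22 was highest for the olfactory list (0.885), Krtdap (0.917) and Hmox1 (0.842).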

How the results depend on the processing

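With 4 animals a group, 0 of 19822 probe sets passed under the settings tried, except for 1 with array weights, 1 without animals 18 and 22, 1 without animal 22 with the array median as a covariate (Mkrn1 in each), and 0 to 2 when each animal was left out in turn (2 without animal 20). The test against the 24 h effect gave 0 under every setting run. No paired analysis was possible because no replicate numbers are shared between the groups. The cause of each change below was not tested.

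Leaving out each animal in turn moved the difference in RNA integrity number from -2.33 to -1.2, in the log2 array median from -0.477 to -0.229, in the Gapdh 3′ to 5′ ratio from 0.434 to 0.944 and in that of beta-actin from -0.955 to 0.441. It turned Foxj1 (-0.204 to 0.479), Sprr1a (-1.34 to 2.29), Sprr3 (-1.22 to 1.98), Serpinb2 (-0.231 to 2.99), Krt5 (-0.034 to 1.91), Muc5ac (-0.894 to 1.30), Muc5b (-0.4 to 0.448), Cox4i1 (-0.338 to 0.331), Il1b (-0.049 to 0.605), Pip (-0.359 to 3.34), Obp3 (-0.688 to 0.959), Alas2 (-0.279 to 0.844) and Hbb (-0.239 to 0.404). Quantile normalization turned Foxj1 (-0.043), Obp1f (0.184) and Bpifa1 (0.232), and median centring turned Muc5b (0.312), Cox4i1 (0.256) and Cyp2a3 (0.098). Array weights turned Muc5b (0.08), Obp3 (-0.385), Alas2 (-0.224) and Hbb (-0.16). The RNA integrity number as a covariate turned Muc5b (0.53), Cox4i1 (0.058), Cyp2a3 (0.051) and Hbb (-0.039), and the array median as a covariate Muc5b (0.036), Obp1f (0.27) and Alas2 (-0.112). The mean of all probe sets turned Bcl2l11 (-0.04). Without animals 18 and 22 values were -0.359 for Pip, -0.688 for Obp3 and -0.279 for Alas2.

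Without animals 22 and 25 the sign turned for Sprr1a (-0.888), Sprr3 (-1.29), Serpinb2 (-0.221), Cox4i1 (0.026), Cyp2a3 (0.076), Pip (-1.14), Obp3 (-0.84), Alas2 (-0.171) and Adam17 (-0.037). Without animals 22 and 26 it turned for Muc5b (0.462), Obp3 (-0.389), Alas2 (-0.521) and Hbb (-0.239). Without animal 22, the array median as a covariate turned Muc5b (0.029), Obp1f (0.001), Bpifa1 (0.176), Pip (-0.211), Obp3 (-0.577), Alas2 (-0.427) and Rps15 (0.254), quantile normalization Bpifa1 (0.256), Pip (-0.275), Obp3 (-0.191) and Alas2 (-0.084), a pseudocount of 64 Pip (-0.31), Obp3 (-0.687) and Alas2 (-0.196), and the fit of the 7 arrays alone Pip (-0.359), Obp3 (-0.688) and Alas2 (-0.279). The other named genes kept their sign in the settings where they were measured. The medians of the ciliated list (0.649 to 1.55) and of the cartilage and bone list (-1.16 to -0.548) kept their sign without each animal in turn, and that of the squamous list did not (-0.034 to 1.68).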
